A study of Oryza sativa with 6 samples.

Results

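The IP-G4s described here are those 3129 rows, among 25509 specific to K+ or to Na+ in the rice genome, that lie around the 12 centromeres. An IP-G4 is a stretch of DNA recovered by the BG4 antibody, which binds DNA folded into G-quadruplexes (G4s). A row of either specific list was counted as centromeric when its midpoint lay within 1.5 Mb of the position of the centromere on its chromosome in the MSU v7.0 genome. These positions, in Mb, were 16.7 on chromosome 1, 13.6 on 2, 19.4 on 3, 9.7 on 4, 12.4 on 5, 15.3 on 6, 12.1 on 7, 12.9 on 8, 2.8 on 9, 8.2 on 10, 12 on 11 and 11.9 on 12. They are rounded values that do not come from the deposited lists, and the sequence of the genome was not used here, so that centromeric repeats were not checked at these positions. Membership depends on position alone, and the windows were set with earlier results of these data known.

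The lists came from BG4-DNA-IP-seq of genomic DNA of wild-type rice (Oryza sativa) seedlings, fixed with formaldehyde and fragmented. The DNA was folded in vitro with PEG200, a crowding agent, in the presence of potassium (K+PEG, 2 libraries) or sodium (Na+PEG, 2 libraries), and 2 input libraries were made without the antibody. All groups share the genotype, the tissue and the fixation, and the antibody incubation and washes of both folding conditions were made in buffers with potassium. A K+-specific IP-G4 is a segment found in both K+PEG replicates that overlaps no segment found in both Na+PEG replicates, and a Na+-specific one is the reverse. The 4 lists of single libraries used here hold between 864 and 874 peaks each and end between 5.84 and 8.02 Mb on chromosome 1, before the first base of any centromeric window there (15200000). Enrichment over input, the spread between replicates and the common IP-G4s were therefore not analysed around centromeres.

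G4s fold from runs of guanines that stack in planar tetrads, with a cation held in the channel between them. Potassium is generally known to stabilize them more than sodium. Plant centromeres assemble nucleosomes with the histone variant CENH3, and in rice they are built from the CentO satellite and from centromeric retrotransposons, often of the Ty3/gypsy class. The surrounding pericentromeric DNA is rich in transposable elements and poor in genes.

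Specific IP-G4s were denser around the centromeres than on the rest of the chromosomes, and the K+-specific ones were concentrated in the innermost part. The 36 Mb of the 12 windows make up 9.65% of the covered genome and held 12.3% of its specific IP-G4s, 2108 of K+ type and 1021 of Na+ type. Within 0.5 Mb of the position, 74.5% of the IP-G4s were K+-specific (900 of 1208, 95% Wilson interval 72.0 to 76.9), against 62.9% (1208 of 1921, 60.7 to 65) from 0.5 to 1.5 Mb. Among all rows of the genome 65.6% were K+-specific. The highest share was that of the first 0.25 Mb after the position, where 344 K+-specific and 53 Na+-specific IP-G4s gave a K+ share of 86.6% (83.0 to 89.6). The intervals cover counting error only.

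**Figure D1:**
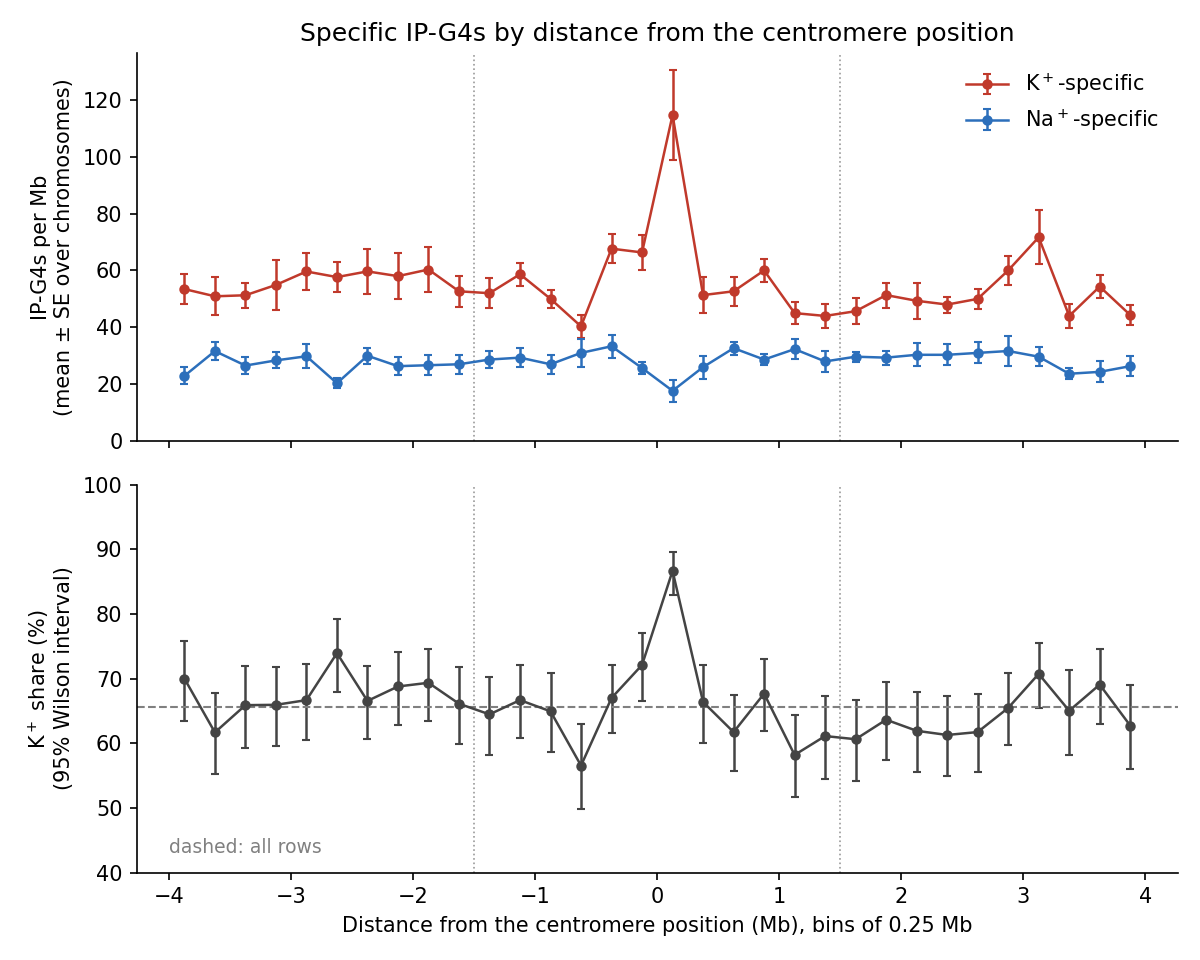
Density of K+-specific (red) and Na+-specific (blue) IP-G4s per Mb (upper plot, mean and standard error over chromosomes) and the share of K+-specific ones in percent with its 95% Wilson interval (lower plot), in bins of 0.25 Mb by distance from the centromere position; dotted lines mark 1.5 Mb and the dashed line the share among all rows. In the bin from 0 to 0.25 Mb the K+-specific density was 115 per Mb and the Na+-specific density 17.7 per Mb.

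The number of IP-G4s was compared between each window and the rest of its chromosome, so that every chromosome gave 1 value. The windows held from 220 IP-G4s on chromosome 5 to 303 on chromosome 12, and all other windows lay between 246 and 273. The mean density was 86.9 ± 6.53 IP-G4s per Mb (SD, n = 12 chromosomes) in the windows and 66.8 ± 3.33 on the rest of the chromosomes. The windows were denser on 11 of 12 chromosomes, by 1.3-fold on average (log2 ratio 0.38 ± 0.15, SD; exact two-sided sign-flip permutation test over chromosomes, Benjamini-Hochberg adjusted p = 0.00273 over 14 tests). The exception was chromosome 5, with 73.3 per Mb in the window and 73.4 on the rest. The p-values describe the spread between chromosomes of the same 2 lists and not the spread between libraries.

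Both types of IP-G4 were denser in the windows. The K+-specific density was 58.6 ± 5.89 per Mb (SD, n = 12) against 43.6 ± 2.35 on the rest, higher on 12 of 12 chromosomes and 1.34-fold on average (exact sign-flip test, adjusted p = 0.00228). It ranged from 50 per Mb around centromere 5 to 70 around centromere 12, whereas no rest of a chromosome exceeded 48.7 as a whole. The rests are longer than the windows, so that their averages can hide dense stretches. In the flanks directly outside the windows the K+-specific density was 54.25 ± 9.78 per Mb (SD, n = 12). It ranged there from 42 on chromosome 10 to 76.3 on chromosome 5, above every window. For Na+-specific IP-G4s the density was 28.4 ± 3.10 per Mb (SD, n = 12) against 23.1 ± 1.43, higher on 11 of 12 chromosomes and 1.22-fold on average (exact sign-flip test, adjusted p = 0.00293). It was lowest around centromere 5 (23.3 per Mb) and highest around centromere 3 (33.0 per Mb).

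**Figure D2:**
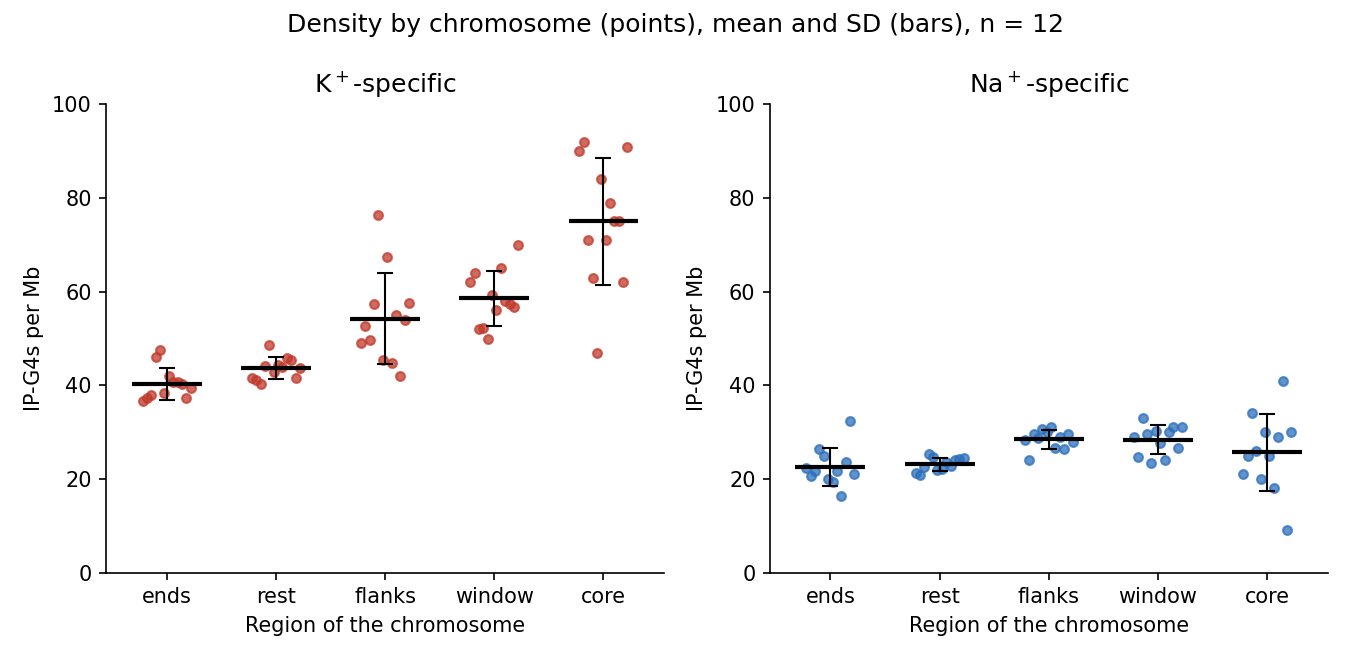
K+-specific (left) and Na+-specific (right) rows per Mb on each of the 12 chromosomes (points), with the mean and SD (black), at the chromosome ends (the outer 1.5 Mb at either end), on the rest of the chromosome, in the flanks from 1.5 to 3 Mb, in the window within 1.5 Mb and in the core within 0.5 Mb of the centromere position. The K+-specific means rise from 40.4 per Mb at the ends to 75 in the core, whereas the Na+-specific means lie between 22.5 and 28.5.

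The higher density was not limited to the windows. In the flanks, from 1.5 to 3 Mb on either side, the mean density was 82.7 ± 11 IP-G4s per Mb (SD, n = 12), and the windows exceeded them by a log2 ratio of only 0.078 (exact sign-flip test, adjusted p = 0.378). For K+-specific IP-G4s this ratio was 0.12 (exact sign-flip test, adjusted p = 0.304) and for Na+-specific ones -0.011 (exact sign-flip test, adjusted p = 0.884). At the edge of the windows the lists showed no step, with 195 rows in the last 0.1 Mb inside and 194 in the first 0.1 Mb outside, of which 62.1% and 62.9% were K+-specific. Against the outer 1.5 Mb at both chromosome ends, where genes are typically dense, the windows were denser on 12 of 12 chromosomes and by 1.38-fold on average (62.9 ± 5.60 per Mb at the ends, SD; exact sign-flip test, adjusted p = 0.00228).

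Taken over whole windows, the K+ share was 67.3 ± 3.32% (mean of chromosomes ± SD, n = 12), against 65.3 ± 1.3% on the rest of the chromosomes. The difference of 1.98 percentage points, higher on 9 of 12 chromosomes, did not pass the threshold (exact sign-flip test, p = 0.0630, adjusted p = 0.0802). It was 4.07 percentage points within 1.0 Mb of the position (exact sign-flip test, adjusted p = 0.0107), and 0.26 where rows of one type under 1000 bp apart were merged (exact sign-flip test, adjusted p = 0.782). The share was lowest around centromere 3 (61.2%) and highest around centromere 8 (73.0%). Nor did the difference of 2.99 percentage points from the chromosome ends pass (exact sign-flip test, adjusted p = 0.0906).

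Inside the windows, the K+ share was higher in the core than around it, without an even gradient. In bins of 0.25 Mb it was 72.1% just before the position and 86.6% just after it, and between 56.5% and 67.7% in the other 10 bins. Apart from the bin just after the position, the bins of the core had 66.4% to 72.1%. This lies within the range of the bins outside the windows, up to 4 Mb away (60.6% to 73.9%). The K+ share was 74.7 ± 6.44% (mean of chromosomes ± SD, n = 12) in the core, within 0.5 Mb, and 62.9 ± 3.70% from 0.5 to 1.5 Mb. The core was higher by 11.9 ± 7.22 percentage points (SD) and on 11 of 12 chromosomes (exact sign-flip test, adjusted p = 0.00273). Around centromere 11 the core held 62 rows of K+ type and 9 of Na+ type (87.3%), whereas the outer part of the window held 108 and 71 (60.3%). This core was sparser than the outer part, with 71 against 89.5 rows per Mb of both types together. Its K+-specific density was 62 per Mb against 54 in the outer part. The shares in the core of chromosomes 8 and 1 were 81.4% and 81.1%, against 68.2% and 59.3% in their outer parts. The exception was chromosome 10, with 64.7% in the core and 65.1% outside it, and on chromosome 5 the shares were also close (70.1% and 67.3%). From 0.5 to 1.5 Mb the K+ share lay below that of the rest of the chromosome on 8 of 12 chromosomes, with a mean difference of -2.47 percentage points, a comparison made after the values were seen and not tested.

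**Figure D3:**
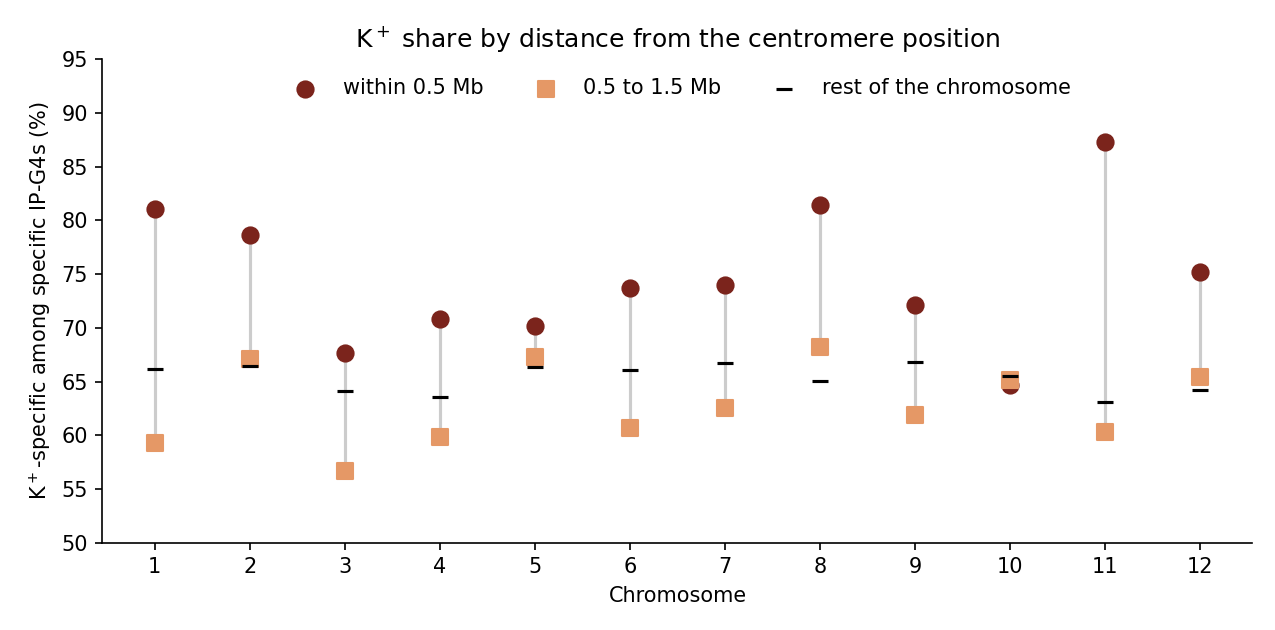
Share of K+-specific among all specific IP-G4s, in percent, for each chromosome within 0.5 Mb of the centromere position (dark circles), from 0.5 to 1.5 Mb (light squares) and on the rest of the chromosome (black dashes); the vertical axis starts at 50%. The dark circle lies above the light square on 11 of 12 chromosomes.

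The change in share came with more K+-specific IP-G4s in the core and, on most chromosomes, fewer Na+-specific ones. The bin from 0 to 0.25 Mb stood out, with 115 K+-specific and 17.7 Na+-specific IP-G4s per Mb. In the other bins of the core these densities were 51.3 to 67.7 and 25.7 to 33.3 per Mb. Outside the windows, the bin from 3 to 3.25 Mb held 71.7 K+-specific IP-G4s per Mb. On chromosome 11 the Na+-specific density was 9 per Mb in the core and 35.5 in the outer part. In the core the mean density was 75 ± 13.5 per Mb (SD, n = 12) for K+-specific IP-G4s, above the outer part of the window on 11 of 12 chromosomes and 1.47-fold on average. For Na+-specific IP-G4s it was 25.7 ± 8.23 per Mb, against 29.7 ± 3.45 in the outer part, below it on 9 of 12 chromosomes and 0.820-fold on average. These 2 ratios were computed after the share had been seen and were not tested separately. Of both types together, the core held 101 ± 17.6 IP-G4s per Mb (SD, n = 12) and the outer part 80.0 ± 5.64, a 1.24-fold difference seen on 10 of 12 chromosomes (log2 ratio 0.31; exact sign-flip test, adjusted p = 0.0162). With a core of 1.0 Mb to either side the log2 ratio was 0.20 and did not pass (exact sign-flip test, adjusted p = 0.0608), and with rows merged it was also 0.20 and passed (exact sign-flip test, adjusted p = 0.0335). The core of chromosome 12 was the densest (121 per Mb) and that of chromosome 5 the sparsest (67.0 per Mb).

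Part of the K+-specific IP-G4s of the core, 288 of 900, lay in long unbroken runs, in which no Na+-specific IP-G4 stood between the first and the last. Across the genome there were 9 runs of 20 or more K+-specific IP-G4s, and all 9 had their middle within 0.183 Mb of a centromere position, each on a different chromosome. The minimum of 20 was set after the runs had been seen, and they are given as a description with no test. The windows make up 9.65% of the covered genome. Most of the K+-specific runs of 15 to 19 lay outside the windows. The longest run comprised 50 IP-G4s on chromosome 2, from 13555719 to 13731830. It was followed by 45 on chromosome 12 (11952645 to 12109757), 43 on chromosome 1 (16767493 to 16997556) and 34 on chromosome 6 (15401011 to 15507611). Chromosome 9 had a run of 30 (2750490 to 2876669), chromosome 8 one of 23 (12883584 to 12996758) and chromosome 10 one of 22 (8107979 to 8160640). The remaining runs held 21 on chromosome 11 (11952815 to 12116855) and 20 on chromosome 4 (9745315 to 9943273). The middle of 8 of these 9 runs lay after the rounded position, by between 0.0136 and 0.183 Mb, and that on chromosome 10 lay before it, at -0.0657 Mb. Over the whole windows, 69.0% of the 1599 members after the position and 65.7% of the 1530 members before it were K+-specific.

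**Figure D4:**
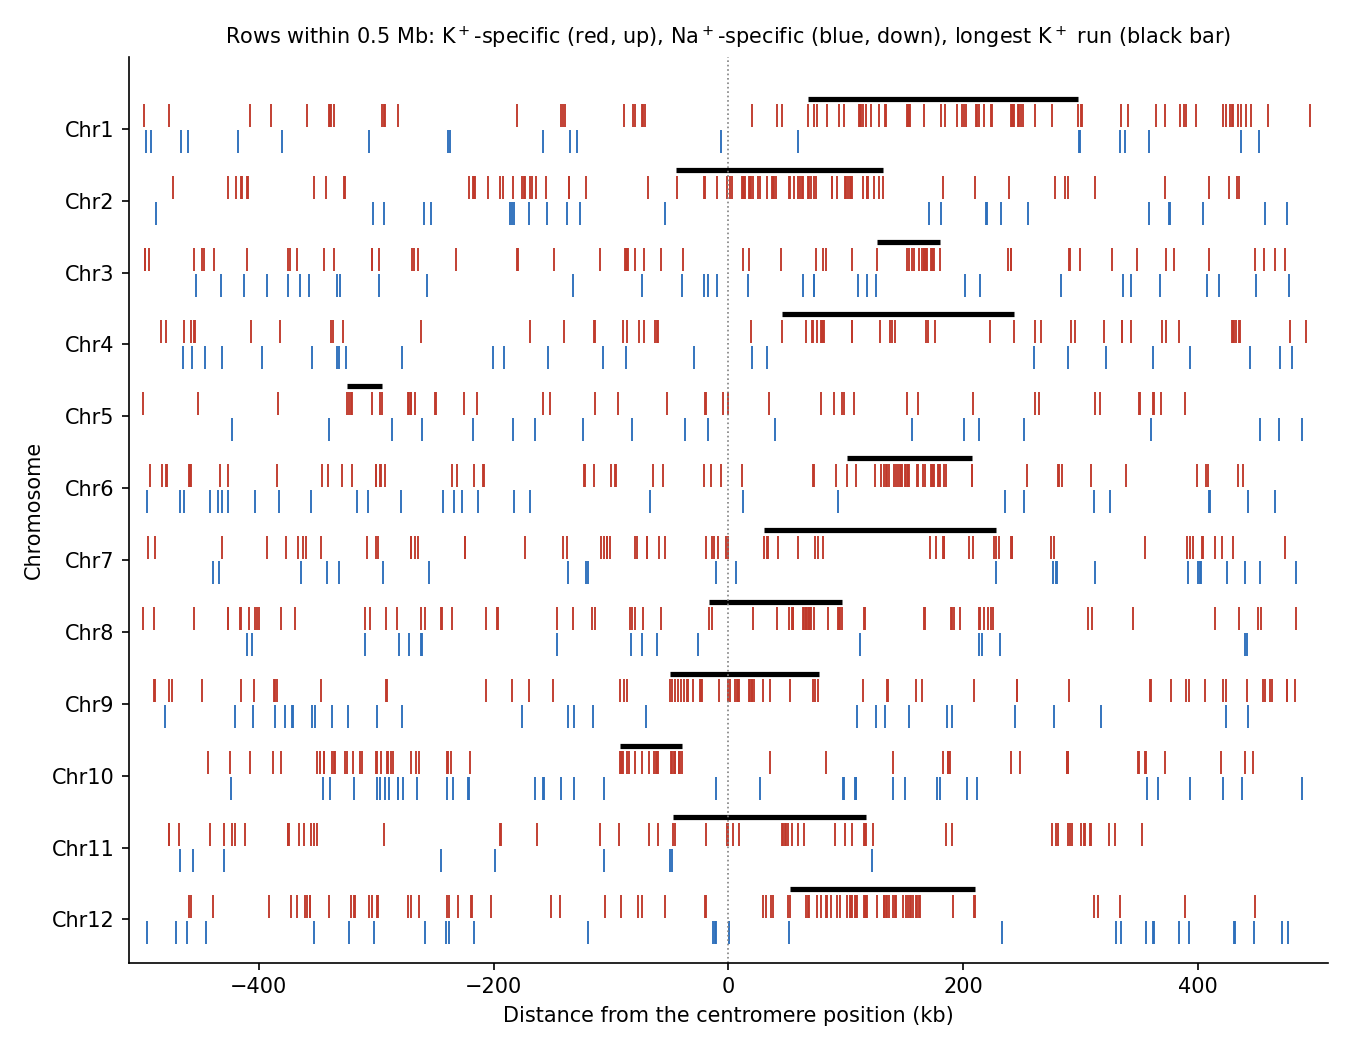
Each specific IP-G4 within 0.5 Mb of the centromere position of the 12 chromosomes, by distance in kb, with K+-specific ones as red ticks above and Na+-specific ones as blue ticks below each line; the black bar marks the longest K+-specific run whose middle lies within 0.5 Mb. On 10 of 12 chromosomes this run held more IP-G4s than any K+-specific run outside the window.

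No K+-specific run outside the windows was longer than 19 IP-G4s. On 10 of 12 chromosomes the longest run in the core was longer than the longest one outside the window of the same chromosome, for example 50 against 14 on chromosome 2 and 45 against 13 on chromosome 12. Chromosome 3 was an exception, with 17 in the core against 19 outside, although the 17 lay within 54.2 kb and the 19 over 266 kb. Around centromere 5 the longest run in the core held only 7 IP-G4s, against 16 in a run from 15382269 to 15435221, which lies 3.01 Mb after the position used. The flanks of chromosome 5 were also the densest of all flanks, with 107 IP-G4s per Mb against 73.3 in its window. Na+-specific IP-G4s formed no comparable runs. Their longest run in the genome held 9 and the longest one in the windows 7, on chromosome 11 from 13081054 to 13159929.

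Together the 9 long runs held 288 IP-G4s, which is 32% of the K+-specific IP-G4s of the cores and 13.7% of those of the windows, on 1324 kb or 3.68% of the window length. Their joint density was 218 per Mb, and the mean K+-specific density outside the windows was 43.6 per Mb. These 2 values are not alike, since the runs were picked for many consecutive K+-specific IP-G4s. Outside the windows, runs of 15 to 19 held between 41.7 and 302 per Mb, the highest on chromosome 5. The 9 long runs differed in how tightly they were packed. That on chromosome 10 was the most compact, with 418 per Mb over 52.7 kb, followed by that on chromosome 6 with 319 per Mb over 107 kb. That on chromosome 4 held 101 per Mb over 198 kb. The median gap between neighbours in a run was between 804 bp on chromosome 8 and 4243 bp on chromosome 11. The IP-G4s of the runs measured 309 ± 141 bp (mean ± SD over rows) with a median of 252.5 bp, close to the median of 262 bp of all K+-specific members.

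**Figure D5:**
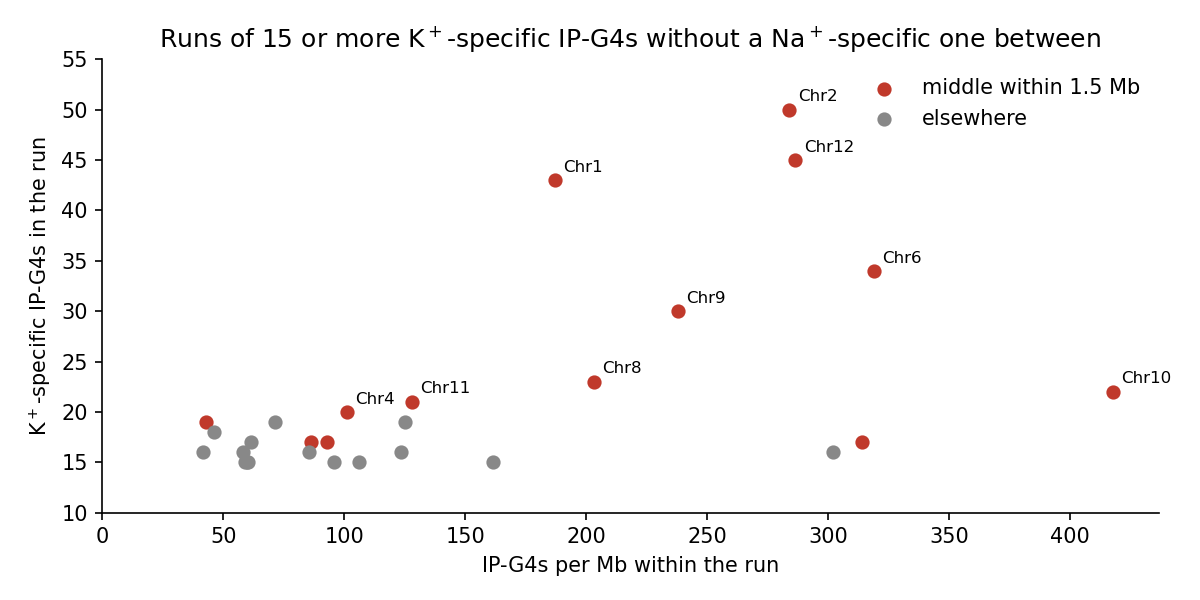
Number of IP-G4s in each run of 15 or more K+-specific IP-G4s against their density within the run, per Mb; red points have their middle within 1.5 Mb of a centromere position and grey ones lie elsewhere. The 9 runs of 20 or more, labelled by chromosome, are all red, and the longest of the grey ones hold 19.

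The same places stood out when the chromosomes were cut into bins of 100 kb. These bins count the same rows as the runs, so that they are not a separate observation. Of 3738 bins in the genome, the 3 with the most specific IP-G4s were centromeric and contained K+-specific ones only, with 34 on chromosome 2 (13600001 to 13700000), 32 on chromosome 6 (15400001 to 15500000) and 32 on chromosome 12 (12000001 to 12100000). The highest count of a bin outside the windows was 25, and the median bin held 8 IP-G4s inside the windows and 6 outside, over bins with at least 1. Of the 19 bins with 20 or more specific IP-G4s, 10 lay in the windows, which make up 9.65% of the covered genome. Under a filter set after the values were seen, there were 6 bins with 15 or more K+-specific and no Na+-specific IP-G4s, all 6 in the windows. They comprised the 3 above and those on chromosome 8 (21 from 12900001 to 13000000), chromosome 1 (18 from 16800001 to 16900000) and chromosome 9 (16 from 2800001 to 2900000). A different pattern was found on chromosome 10 from 7900001 to 8000000, where 13 K+-specific and 12 Na+-specific IP-G4s lay side by side, about 0.25 Mb before the position.

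Among all specific IP-G4s of the genome 65.6% were K+-specific. Close to that share, the IP-G4 nearest to the centromere position was K+-specific on 8 of 12 chromosomes. It lay between 0.471 and 18.9 kb away. On chromosome 5 it spanned 12399388 to 12399672, on chromosome 9 2799321 to 2799648, on chromosome 11 11999240 to 11999542, on chromosome 7 12099162 to 12099407 and on chromosome 2 13598890 to 13599220. The K+-specific rows of chromosomes 4 (9718831 to 9719046), 6 (15293385 to 15293669) and 8 (12885744 to 12886085) lay farther off. A Na+-specific row was nearest on chromosomes 1 (16693157 to 16693388), 3 (19390356 to 19390626), 10 (8188993 to 8189197) and 12 (11900725 to 11900963). Over the 10 nearest rows of each chromosome, 95 of 120 (79.2%) were K+-specific, against 65.6% of all specific rows. K+-specific rows were 10 of 10 on chromosomes 2 and 9 and only 5 of 10 on chromosome 3.

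Spacing was tighter and less even around the centromeres. The gap between neighbouring IP-G4s of either type had a median of 6.01 kb in the windows (quartiles 1.56 and 15.6 kb, 3117 gaps) and 9.14 kb on the rest of the chromosomes (2.85 and 20.5 kb, 22356 gaps). The median was smaller in the window on 12 of 12 chromosomes, 0.647-fold on average (log2 ratio -0.63 ± 0.29, SD; exact sign-flip test, adjusted p = 0.00228). It ranged from 4800 bp around centromere 8 to 7928 bp around centromere 5. The smallest median over the whole rest of a chromosome was 8176 bp, also on chromosome 5, but the flanks of chromosome 7 had 4835 bp. The median gap is tied to the density of the same rows, so that its test is not separate from that of the density. Gaps under 1 kb made up 17.8% in the windows, 22.5% in the core and 12.5% on the rest. The coefficient of variation of the gaps (their SD divided by their mean) was 1.28 ± 0.117 (SD, n = 12) in the windows and 1.15 ± 0.0345 on the rest, higher on 11 of 12 chromosomes (exact sign-flip test, adjusted p = 0.00293). Against the flanks from 1.5 to 3 Mb, neither the spacing nor its evenness passed the threshold (log2 ratio -0.25 and difference 0.087; exact sign-flip test, adjusted p = 0.181 for both).

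The windows also held some long stretches without any specific IP-G4, but such stretches were not particular to them. Gaps over 50 kb made up 2.34% of the gaps in the windows (73 of 3117) and 4.46% on the rest (996 of 22356). The longest in a window was 204 kb on chromosome 11, from 12352904 to 12557018, and it was followed by 135 kb on chromosome 10 (7621317 to 7756545) and 131 kb on chromosome 4 (9055831 to 9186944). The rest of the chromosomes had a similar longest gap of 214 kb. Common IP-G4s may lie in these stretches and were not analysed here. Whether the stretches hold unsequenced bases or repeats in which reads cannot be placed was not tested.

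Neighbouring rows were of the same type in 59.2 ± 4.49% of pairs in the windows (mean of chromosomes ± SD, n = 12) and in 56.4 ± 1.21% on the rest. The difference of 2.88 percentage points, higher on 9 of 12 chromosomes, did not pass after adjustment (exact sign-flip test, p = 0.0479, adjusted p = 0.0670), and it was 0.83 with rows merged as above. In the core the share of like neighbours was 67.2 ± 9.08% (SD, n = 12), with the highest value on chromosome 11 (82.9%), and from 0.5 to 1.5 Mb it was 54.1 ± 3.78%. This share depends on the K+ share, which is also higher in the core.

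K+-specific IP-G4s were slightly longer in the windows, by a call that several settings ended. They had a mean length of 308 ± 11.3 bp (mean of chromosome means ± SD, n = 12) in the windows and 297 ± 6.73 bp on the rest, a difference of 10.9 bp that was positive on 8 of 12 chromosomes (exact sign-flip test, adjusted p = 0.0395). The largest difference was 30.9 bp on chromosome 3 and the lowest was -9.77 bp on chromosome 10. The call rested on single chromosomes, since leaving out chromosome 1, 2, 3, 6, 8, 11 or 12 raised the adjusted p to between 0.0561 and 0.0790, and against the flanks the difference was 7.88 bp (exact sign-flip test, adjusted p = 0.225). With rows under 1000 bp apart merged it was 77.0 bp (exact sign-flip test, adjusted p = 0.00195), a length that includes the gaps. The medians were also close, 262 bp over all K+-specific members and 258 bp over the other K+-specific rows. Na+-specific IP-G4s measured 249 ± 10.8 bp (SD, n = 12) in the windows and 243 ± 3.76 bp on the rest, and the difference of 6.26 bp did not pass (exact sign-flip test, adjusted p = 0.101).

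Both types kept their order of length around the centromeres, with K+-specific members longer than Na+-specific ones on every chromosome, by between 27.9 bp on chromosome 10 and 85.8 bp on chromosome 8. This excess, 58.7 ± 18.7 bp (SD, n = 12) in the windows and 54.1 ± 6.59 bp on the rest, differed by 4.61 bp (exact sign-flip test, adjusted p = 0.449; the difference on single chromosomes ranged from -38.0 to 36.3 bp). Rows shorter than 200 bp, the shortest called peak in the available parts of the single-library lists, can be left by an intersection of replicate peaks. They made up 15.4% of the K+-specific members (324 of 2108), against 15.9% of all K+-specific rows, and 23.9% of the Na+-specific members (244 of 1021), against 25.1% of all Na+-specific rows. The mean length of K+-specific rows was 312 bp in the core and 305 bp in the outer part of the windows.

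The 3 longest K+-specific members lay in the core. They were 1847 bp on chromosome 11 (12289943 to 12291789), which is also the longest row of the whole K+-specific list, 1294 bp on chromosome 6 (15310617 to 15311910), 11.3 kb from the position, and 1072 bp on chromosome 6 (14915146 to 14916217). The 3 longest Na+-specific members all lay more than 0.5 Mb from the position. They were 780 bp on chromosome 10 (9523535 to 9524314), 775 bp on chromosome 11 (13305204 to 13305978) and 762 bp on chromosome 11 (11267445 to 11268206). This contrast between the types did not hold further down. The next K+-specific members, of 1059 and 1028 bp, lay outside the core, and the next Na+-specific ones, of 759 and 719 bp, inside it. In the long K+-specific runs the longest row was 908 bp, on chromosome 8 from 12972354 to 12973261, and it was followed by 899 bp on chromosome 2 (13613710 to 13614608) and 841 bp on chromosome 6 (15434696 to 15435536).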

How the data were processed

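The authors cleaned reads with Trim Galore and mapped them with BWA (MSU v7.0 genome), removed PCR duplicates with SAMtools, called peaks with MACS against input from alignments above a minimum length, and intersected lists with bedtools. The specific lists deposited by the authors hold positions and no other value, so that the depth behind each row is unknown. Densities counted every base of a region, and how well reads could be placed in repeats around the centromeres was not tested.

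Rows were assigned by midpoint, chromosomes were taken to end at their last specific row, and rows of the 2 lists overlapped in 0 cases. Densities, K+ shares, mean lengths and gaps were computed per chromosome and region (a gap counted where both of its rows lay in the region), and compared by exact two-sided sign-flip permutation over 12 chromosomes, with Benjamini-Hochberg adjustment over 14 tests and a threshold of 0.05. The smallest p this allows is 0.000488. Python 3.11.15, numpy 2.4.6, pandas 2.3.3 and scipy 1.17.1 were used, and the procedure was tested on simulated data with known changes in density and K+ share but none in length.

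The windows and tests were chosen with earlier results of these data known. Loci named by rule are the 3 longest members of each type, the member nearest to each position, the 3 longest gaps, the 3 bins of 100 kb with the most members, and the windows with extreme counts or shares. Runs and other bins were chosen after their values were seen. Sequence features and genes were left out, since neither the sequence nor the annotation of that genome build was used.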

Additional observations from a re-analysis of the deposited data

Results flagged for a closer look

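The K+-specific and the Na+-specific IP-G4s differed under the same contrast, the core within 0.5 Mb of the centromere position against the outer part of the window. Tested as the K+ share, the difference was 11.9 percentage points, positive on 11 of 12 chromosomes (exact two-sided sign-flip permutation test over chromosomes, p = 0.000977, adjusted p = 0.00273). Over the alternatives with a test, the adjusted p ranged from 0.00137 to 0.0254. Whether enrichment over input differs between the conditions at these loci was not tested.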

How the results depend on the processing

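Of 268 alternative values for 14 results, 242 kept their direction and their side of the threshold (or, for rows pooled over chromosomes, which had no test, lay within 1 SD over chromosomes). No paired analysis was possible because the specific lists carry no value of a single library, and for the same reason no replicate could be left out. The cause of the changes was not tested. Adjusted p-values are from the exact sign-flip test.

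With the flanks from 1.5 to 3 Mb as the comparison, the log2 density ratio was 0.078 for all specific IP-G4s, 0.12 for K+-specific and -0.011, reversed, for Na+-specific ones, the log2 ratio of spacing -0.25, the difference in its coefficient of variation 0.087 and the K+-specific length difference 7.88 bp, none of which passed. Within 1.0 Mb in place of 1.5 Mb, the K+ share (4.07 percentage points), the Na+-specific length (10.1 bp) and the like neighbours (4.77 percentage points) passed. The K+-specific length difference no longer passed within 2.0 Mb (9.34 bp) or without the 3 Mb at each chromosome end (9.72 bp). Merging rows of one type under 1000 bp apart, which adds gaps to lengths, gave a length difference between types of 70.1 bp, which passed, and a K+-specific length difference of 77.0 bp. The same merging lowered the differences in K+ share (0.26 percentage points, 1.47 against the ends), like neighbours (0.83 percentage points) and coefficient of variation (0.077) and the log2 density ratio of the core (0.20) by more than 1.5 times, with no call changed. A core of 1.0 Mb to either side, chosen after seeing the data, gave a log2 density ratio of 0.20 against the outer part, which did not pass (exact test, adjusted p = 0.0608), while the K+ share difference was 6.59 percentage points (exact test, adjusted p = 0.0254). With 0.25 Mb it was 16.1 percentage points (exact test, adjusted p = 0.00391).

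With each chromosome left out in turn, the K+-specific length difference went from 9.05 to 12.7 bp and lost its call in 7 cases. The K+ share difference went from 1.43 to 2.42 percentage points and passed without chromosome 3, and that against the ends from 1.95 to 3.75 and passed without chromosome 9. The Na+-specific length difference went from 4.26 to 8.17 bp and passed without chromosome 12. Like neighbours went from 2.35 to 3.54 percentage points and passed without chromosome 3, 4 or 5. The other 9 results kept their calls, and the K+ share of the core exceeded that of the outer part by 10.5 to 13 percentage points.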
